A study of Homo sapiens with 6 samples.

Results

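In NCI-H660 cells treated with pyrvinium pamoate (PP), SFTPB, CEACAM6, TMEM100, SFRP5 and FXYD6 were the 5 genes with the lowest log2 fold change against cells given PBS, and each was left at 4.39% to 12.7% of its PBS level. CEACAM5, the close relative of CEACAM6, was left at 21.9%. These 6 genes are described here, out of 17177 genes in the deposited table and 11726 that were tested. The first 5 were chosen by this same log2 fold change, so their values are a description and carry no test. The fold change was computed with 1 added to each value, which understates the change of a gene with low values. Thus SFTPA1 and DDC, left at 3.62% and 4.38% of their PBS levels, were not among the 5. CEACAM5 was added for its relation to CEACAM6 and not for its own value, so a test is given for it. It too was chosen with earlier results of these data known.

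NCI-H660 is an established human cell line of neuroendocrine prostate cancer (NEPC), the aggressive form of the disease in which tumour cells take on features of neuroendocrine cells. The labels call the cells WT, and both groups are this 1 line, so the libraries speak for these cells only. One group of 3 libraries received PBS and the other group of 3 received PP, an anthelmintic dye, and all 6 were taken on day 3. The dose of PP for these libraries is not given in the sources used here. No label says whether the 3 libraries of a group came from separate cultures. The study's text calls its RNA-seq samples independent in a legend and duplicates in the methods. A p-value then measures the spread between these libraries, which may be technical.

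The 6 genes belong to different families. SFTPB encodes surfactant protein B, which spreads the lipid film of the lung alveolus and is made by alveolar type 2 and club cells. CEACAM5 (carcinoembryonic antigen) and CEACAM6 are adhesion glycoproteins held to the outer membrane by a lipid anchor and are found on many adenocarcinomas. TMEM100 is a small membrane protein that BMP9 and BMP10 induce through the receptor ALK1, and in sensory neurons it binds the channels TRPA1 and TRPV1. SFRP5 is a secreted protein that binds WNT ligands away from their receptors. FXYD6 is a small subunit that adjusts the Na,K-ATPase, the pump that keeps sodium and potassium gradients.

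The libraries held 29064253 to 32481171 recovered counts, so that the deepest was 11.8% above the shallowest. The 12 neuroendocrine markers were all above the filter on low values. Their summed FPKM (fragments mapped to a gene, divided by its length in kilobases and by the library's total) was 895 to 902 with PBS and 506 to 521 with PP. With calls made where limma's adjusted p was under 0.05, 7 of these were lower, 2 were higher and 3 were not called. The luminal prostate list summed to 2.09 to 2.72 with PBS and 2.49 to 2.58 with PP. FOLH1, named after its values were seen, had 0 to 4 counts in any library. STEAP2, the only gene of the luminal list tested, rose from 0.705 to 1.59 FPKM (log2 fold change 0.6, adjusted p = 5.34e-05 from limma). TMPRSS2 had 85 to 142 counts per PBS library and 36 to 61 per PP library, and SLC45A3 had 46 to 76 and then 28 to 46. Stromal, endothelial and blood markers summed to 9.78 to 13.9 with PBS and 9.03 to 10.2 with PP, with PECAM1 at 0 to 4 counts, PTPRC at 0 to 4 and CD3E at 0 to 1. Other genes of that list were present. CDH5 had 435 to 481 counts per PBS library and 282 to 351 per PP library, and VWF had 183 to 238 and then 136 to 182. COL1A1 had 591 to 599 and then 725 to 801, and CD68 had 65 to 81 and then 44 to 70. HBB had 76 counts in PBS replicate 1, 30 in PP replicate 3 and 0 to 1 in the other libraries. Most genes named here from these 2 lists were picked after their values were seen. Whether the change in the neuroendocrine markers has a part in the results for the 6 genes was not tested. In bulk RNA, fewer cells that carry a transcript and less of it per cell cannot be told apart.

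SFTPB had the lowest log2 fold change of all genes tested. Its FPKM was 36.8, 33.8 and 34.3 in PBS replicates 1, 2 and 3, and 1.75, 2.32 and 2.18 in PP replicates 1, 2 and 3. The 2 groups did not overlap, and the lowest PBS library was 14.6 times the highest PP library. The mean fell from 34.9 ± 1.61 (SD, n = 3) to 2.08 ± 0.295 (SD, n = 3), so 5.97% of the PBS level was left, and the log2 fold change was -3.55 (standard error 0.07). Between 202 and 268 counts per PP library stood behind the lower values. With PBS the FPKM of SFTPB was above that of 83.3% of the genes tested. The fold change was computed on log2(FPKM + 1), which understates the change of a gene with low values.

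The SFTPB gene (gene 6439 in RefSeq) lies on the reverse strand of chromosome 2, from 85657307 to 85668741 in GRCh38.p14. A stretch before one of its starts is shown because the level of NKX2-1, the lung lineage factor that drives surfactant genes, also changed in these cells. The 190 bases from 250 to 61 before the start, chr2:85668260-85668449 on the reverse strand, lie inside the gene's span, before an inner start and not before the outermost one. They are printed from RefSeq with capitals at the letters TCAAG, the core of the NKX2-1 site, and at the word ACAAACA, which reads as a FOXA site on the other strand.
SFTPB: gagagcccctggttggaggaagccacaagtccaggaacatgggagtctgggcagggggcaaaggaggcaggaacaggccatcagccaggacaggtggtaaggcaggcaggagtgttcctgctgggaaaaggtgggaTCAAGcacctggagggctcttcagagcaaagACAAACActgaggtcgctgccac
The first capital letters begin 114 bases before the start and the second 83 bases before it. Windows of 300 bases around each start (250 before and 50 after) were searched on both strands for TCAAG, which 33.7% of 35116 windows of all genes hold, and for the FOXA words TGTTTAC and TGTTTGC, each also with T as its last letter, which 15.1% hold. The window of the outer SFTPB start held neither TCAAG nor a FOXA word, and both windows held the AP-1 word TGANTCA (7.71% of all windows). The letters were settled with the sequences in view, and a match is a description of the letters, not a site that was shown to be bound.

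CEACAM6 was the most abundant of the 6 genes. Its FPKM was 637, 620 and 622 in the PBS replicates and 66.7, 74.4 and 67.0 in the PP replicates. No PP library came near a PBS library, and the lowest PBS value was 8.33 times the highest PP value. The mean went from 626 ± 9.62 (SD, n = 3) to 69.4 ± 4.38 (SD, n = 3), with a log2 fold change of -3.16 (standard error 0.04). CEACAM6 was above 99.8% of the genes tested with PBS, and with 11.1% of its level left it was still above 93.2% of them with PP.

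CEACAM5 also fell. It had an FPKM of 244, 225 and 221 with PBS and of 47.0, 53.2 and 50.9 with PP. The groups were separate, with a factor of 4.15 between the lowest PBS and the highest PP library. The mean went from 230 ± 12.4 (SD, n = 3) to 50.4 ± 3.14 (SD, n = 3). On the log2 scale CEACAM5 fell by 2.17 (standard error 0.05, 95% interval of the log2 fold change -2.28 to -2.05, adjusted p = 3.14e-10 from limma), and omitting any 1 library gave -2.21 to -2.12. As background, 344 of the 11726 genes tested (2.93%) were lower at an unadjusted P under 0.001 with a log2 fold change below -1, and CEACAM5 was the 21st from the lowest.

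The balance between both CEACAM genes shifted. The ratio of CEACAM6 to CEACAM5 FPKM was 2.61, 2.76 and 2.82 in the PBS replicates and 1.42, 1.40 and 1.32 in the PP replicates. CEACAM6 thus stayed the higher of the pair in all 6 libraries, and the fold by which it fell was 1.98 times that of CEACAM5. No test is given for this ratio, since CEACAM6 was chosen by its change.

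Both genes lie on the forward strand of chromosome 19 in GRCh38.p14, CEACAM5 (gene 1048) from 41708626 to 41730519 and CEACAM6 (gene 4680) from 41755530 to 41772211. Their upstream stretches are shown to let the relation of the pair be read. The 190 bases from 250 to 61 before each start are chr19:41708376-41708565 for CEACAM5 and chr19:41755280-41755469 for CEACAM6, and capitals mark runs of at least 10 bases that both hold.
CEACAM5: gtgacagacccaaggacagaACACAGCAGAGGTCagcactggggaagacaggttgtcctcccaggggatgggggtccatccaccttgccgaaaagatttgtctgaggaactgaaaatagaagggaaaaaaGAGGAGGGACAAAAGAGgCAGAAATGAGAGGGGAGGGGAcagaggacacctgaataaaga
CEACAM6: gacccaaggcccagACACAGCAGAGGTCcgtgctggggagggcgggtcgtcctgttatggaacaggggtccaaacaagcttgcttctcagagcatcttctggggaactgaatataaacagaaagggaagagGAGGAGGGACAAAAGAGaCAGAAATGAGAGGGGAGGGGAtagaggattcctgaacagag
When aligned, 143 of 183 bases (78.1%) were the same, and the shared runs held 52 bases of each sequence. The CEACAM6 window also held the FOXA word ATAAACA, 138 bases before the start and overlapping TATAAA, a word that 11.5% of all windows hold. The CEACAM5 window held TCAAG on the other strand, beginning 40 bases after the start.

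Since reads of related genes can be split between them, the transcripts were compared. Of the 2445 stretches of 150 bases in the longest coding transcript of CEACAM6, 1 was found exactly in another gene, and of the 3352 in CEACAM5, 15 were. The other gene was in each case ENSG00000267881, a readthrough annotated at this locus, and CEACAM5 and CEACAM6 shared no stretch of this length with each other. At 50 bases, 8.25% of the stretches of CEACAM6 and 6.26% of those of CEACAM5 were found in other genes, each other included. Reads were 150 bases long at each end. How reads with several matches were counted is not given in the sources used here.

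TMEM100 had the largest linear fold of the 6 genes and the lowest level in PP. Its FPKM was 11.4, 12.2 and 11.3 with PBS, against 0.512, 0.507 and 0.516 with PP. All 3 PP libraries were far below the PBS libraries, by a factor of 21.9 or more. The mean fell from 11.7 ± 0.480 (SD, n = 3) to 0.512 ± 0.00482 (SD, n = 3), so 4.39% was left. The recovered counts were 879 to 889 per PBS library and 38 to 42 per PP library. The log2 fold change was -3.07 (standard error 0.06) with the pseudocount of 1 and -4.27 with a pseudocount of 0.1, below the -4.01 of SFTPB at that setting. TMEM100 (gene 55273) is annotated on chromosome 17, from 55719627 to 55732081.

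SFRP5 showed FPKM values of 119, 116 and 126 with PBS and of 15.4, 14.2 and 14.4 with PP. The libraries of the 2 groups were 7.55 times apart at the closest. The mean was 121 ± 5.32 (SD, n = 3) and then 14.7 ± 0.626 (SD, n = 3), which left 12.2% of the PBS level and gave a log2 fold change of -2.96 (standard error 0.05). The gene (6425) lies on chromosome 10, from 97766751 to 97771999. Its 300-base window held neither the NKX2-1 and FOXA words nor the AP-1 word or TATAAA.

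FXYD6 had an FPKM of 76.4, 71.3 and 69.3 in the PBS replicates and of 10.5, 8.71 and 8.42 in the PP replicates. The groups did not overlap, and the lowest PBS library was 6.62 times the highest PP library. Its mean fell from 72.4 ± 3.64 (SD, n = 3) to 9.20 ± 1.11 (SD, n = 3), so 12.7% was left, and its log2 fold change was -2.85 (standard error 0.07). The gene (53826) spans chromosome 11 from 117836981 to 117877430, where RefSeq also places the readthrough FXYD6-FXYD2 and the antisense FXYD6-AS1. Neither has its own line in the table, and 65 of 1983 stretches of 150 bases of FXYD6 (3.28%) were also in FXYD6-FXYD2. RefSeq gives FXYD6 a pair of starts, and TCAAG was found 33 bases before one of them and, on the other strand, 153 bases before the other. The library kit keeps the strand, but whether the counting used it is not given in the sources used here.

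**Figure D1:**
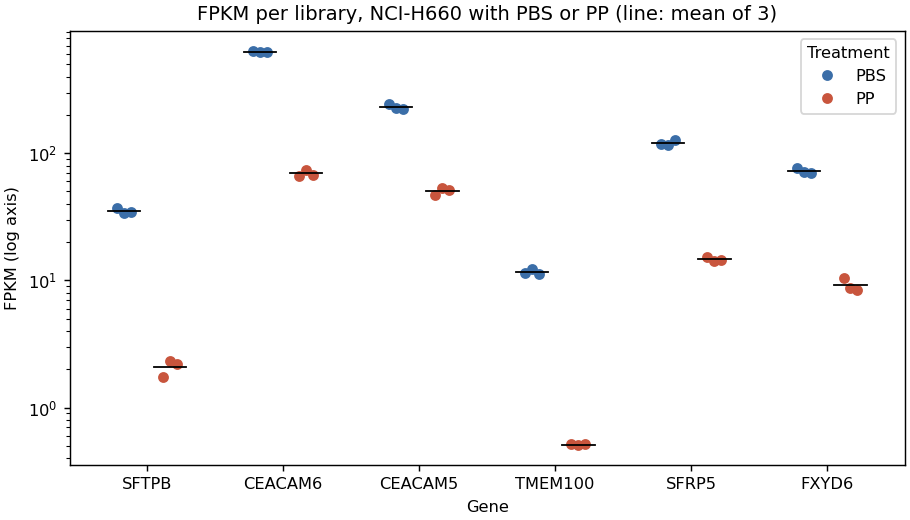
FPKM of the 6 genes (log axis) in each of the 3 PBS and 3 PP libraries of NCI-H660 cells, with a line at the mean of each group. In every gene the 3 PP points lie below the 3 PBS points, from a factor of 4.15 in CEACAM5 to 21.9 in TMEM100 between the closest libraries.

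The plot of FPKM by library shows that the genes kept their order. In both groups CEACAM6 was highest, followed by CEACAM5, SFRP5, FXYD6, SFTPB and TMEM100, and no 2 neighbours in this order overlapped in either group. Spread within a group was small, with a coefficient of variation of 1.54% to 5.38% with PBS and of 0.942% to 14.2% with PP. As background, all 3 PP libraries were below all 3 PBS libraries in 35.5% of the genes tested, and by limma's adjusted p 34.4% were called lower and 38.1% higher. That all 6 genes were among the lower ones follows, for 5 of them, from how they were chosen. Leaving out 1 library at a time moved their log2 fold changes little, with ranges of -3.60 to -3.47 for SFTPB and -2.94 to -2.80 for FXYD6.

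The 5 genes that came next below the chosen ones were PCP4 at a log2 fold change of -2.62, SERTM1 at -2.54, TMPRSS13 at -2.53, ADGRB1 at -2.43 and TESC at -2.43. PCP4 is a small calmodulin-binding protein, TMPRSS13 a membrane serine protease, ADGRB1 an adhesion receptor coupled to G proteins and TESC a calcium-binding protein. The same 5 genes were the nearest to the mean profile of the chosen genes over the 6 libraries (log2(FPKM + 1) minus the PBS mean), with Euclidean distances of 0.89 to 1.20. The chosen genes were themselves 0.13 to 0.77 away from that mean, and CEACAM5 was 1.65 away. This measure follows the size of the change, so it says nothing of shared function or control.

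**Figure D2:**
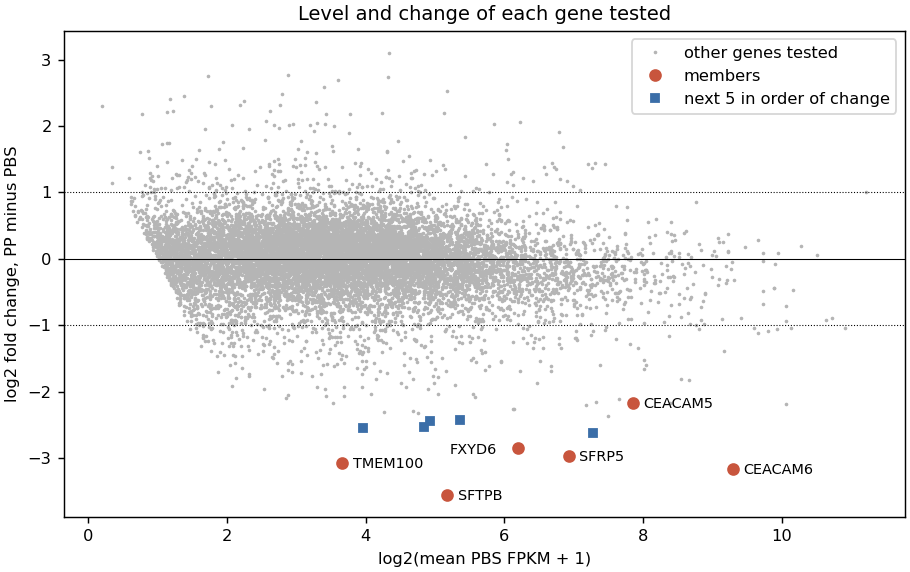
Log2 fold change (PP minus PBS, on log2(FPKM + 1)) against the log2 of the mean PBS FPKM plus 1 for the 11726 genes tested, with the 6 genes in red, the next 5 in blue and dotted lines at 1 and -1. The 6 genes span PBS levels from 11.7 FPKM for TMEM100 to 626 for CEACAM6, and CEACAM5 at -2.17 lies among other genes.

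That few genes lay so low in the plot of level against change follows from choosing genes by this same value. The pseudocount of 1 also limits how low a gene with a low PBS level can lie. SFTPA1, left at 3.62% of its PBS level, lay at -1.91. The plot therefore cannot show whether large falls were rarer at low levels.

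Other genes of the alveolar type 2 cell did not move as 1 group. In the list of 12 surfactant and type 2 genes, 7 were tested, and 4 were lower (57.1%, against 34.4% of all genes tested), 1 was higher and 2 were not called, with a median log2 fold change of -0.29 against 0.02 over all genes tested. LPCAT1, which makes the saturated lecithin of surfactant, fell from 180 to 34.0 FPKM (log2 fold change -2.37, standard error 0.04, adjusted p = 3.49e-11 from limma). SFTPA1, surfactant protein A, fell from 3.18 to 0.115 FPKM (-1.91, standard error 0.07, adjusted p = 8.37e-09 from limma). It had 209 to 253 counts per PBS library and 5 to 13 per PP library, so only its PBS libraries carried it past the filter. SLC34A2, the phosphate transporter of type 2 cells, fell from 8.39 to 1.79 FPKM (-1.76, adjusted p = 1.27e-08 from limma) and SFTPD, a collectin, from 1.64 to 1.16 (-0.29, adjusted p = 0.0148 from limma).

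The rest of that list went another way or was barely present. ABCA3, the lipid pump of the lamellar body, rose from 7.64 to 8.98 FPKM (0.21, adjusted p = 0.00822 from limma). The 2 genes not called, named after their values were seen, were LAMP3 at 101 and 105 FPKM and CTSH at 9.53 and 8.86. SFTPC, the protein made by type 2 cells alone, had 0 to 1 count per PBS library and 0 in all 3 PP libraries, and NAPSA had 0 to 2 counts in any library (both also named after their values were seen). Of 10 airway secretory genes only TFF3, a trefoil peptide, was tested, and it fell from 9.64 to 1.75 FPKM (-1.96, adjusted p = 1.43e-07 from limma).

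The transcription factors of lung epithelium moved in both directions. Of 10 tested from a list of 12, 3 were lower (against 34.4% of all genes tested) and 6 were higher (against 38.1%), with a median of 0.26. NKX2-1 was the most abundant of them, and it fell from 224 ± 2.94 to 92.0 ± 3.05 FPKM (SD, n = 3), a log2 fold change of -1.28 (adjusted p = 5.66e-10 from limma). FOXA1, a pioneer factor, fell from 74.1 to 61.4 FPKM (-0.27) and NFIB from 9.53 to 8.40 (-0.16). CEBPA rose from 4.55 to 13.5 FPKM (1.39), FOXP2 from 1.70 to 5.32 (1.23), KLF5 from 18.0 to 33.3 (0.85) and GATA6 from 2.91 to 5.87 (0.82).

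No other gene of the CEACAM family reached the filter. Of 20 other CEACAM and PSG genes looked for, 8 were listed, and CEACAM3, CEACAM21 and PSG6 were at 0 in all 6 libraries. The 8 summed to 0.811 to 1.34 FPKM with PBS and to 1.59 to 1.75 with PP, against 221 or more for CEACAM5 and 620 or more for CEACAM6 with PBS. CEACAM19, named after its values were seen, had 29 to 47 counts per PBS library and 130 to 169 per PP library. CEACAM1, named in the same way, had 44 to 81 and then 19 to 41.

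Glandular epithelial genes, which adenocarcinomas with high CEACAM levels often carry, fell more often than they rose. Among 13 tested of 20, 10 were lower (76.9%, against 34.4% of all genes tested) and 3 were higher (23.1%, against 38.1%), with a median of -0.58. TSPAN8 and GPA33, both counted as lower, passed the filter only through PBS. MUC1, a membrane mucin, fell from 21.8 to 8.82 FPKM (log2 fold change -1.22), MUC13 from 4.68 to 1.51 (-1.18), VIL1, the actin bundler of microvilli, from 16.8 to 7.05 (-1.15) and TSPAN8 from 3.08 to 0.952 (-1.05). The keratins moved apart, as KRT8, the most abundant with PBS, fell from 617 to 556 FPKM (-0.15) and its partner KRT18 rose from 353 to 429 (0.28). LCN2, the siderophore-binding lipocalin, rose from 93.9 to 246 FPKM (1.38, adjusted p = 6.06e-09 from limma), and LGALS4 rose from 1.14 to 1.85 (0.41).

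**Figure D3:**
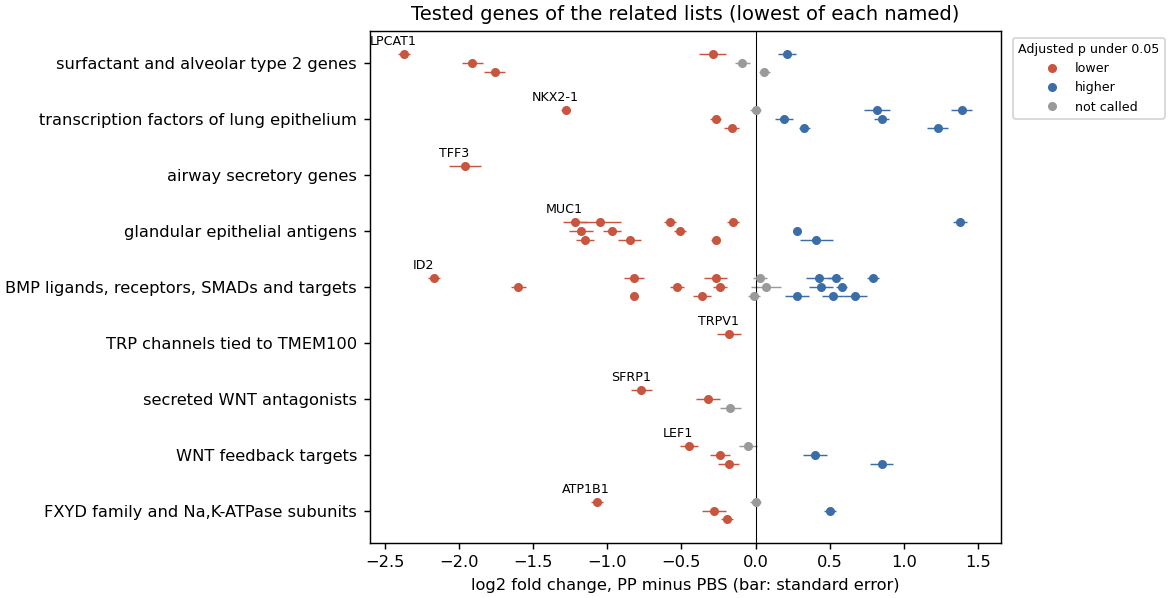
Log2 fold change (PP minus PBS) of the tested genes in 9 lists related to the 6 genes, 1 point per gene with its standard error, coloured by the call at an adjusted p under 0.05. The lists spread to both sides of 0, from LPCAT1 at -2.37 to CEBPA at 1.39, and the lowest gene of each is named.

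As the plot of the related lists shows, BMP genes moved in both directions. For TMEM100, a BMP target, 27 ligands, receptors, SMADs and targets were taken, and of the 19 tested 8 were lower, 8 were higher and 3 were not called, with a median of 0.03. That is 42.1% in each direction, near the 34.4% lower and 38.1% higher over all genes tested. SMAD6, counted as lower, passed the filter only through PBS, and ACVR2A, counted as higher, only through PP. ID2 fell from 333 to 73.1 FPKM (-2.17, adjusted p = 5.28e-11 from limma) and ID1 from 262 to 85.7 (-1.60, adjusted p = 8.51e-10 from limma). These are inhibitors of basic helix-loop-helix factors and direct BMP targets, as is ID3, which fell from 176 to 99.5 FPKM (-0.82), and the inhibitory SMAD6, which fell from 2.03 to 0.716 (-0.82). ID4, of the same family, rose from 50.4 to 88.0 FPKM (0.79). HEY2 rose from 1.28 to 2.63 FPKM (0.67), and the signal carriers SMAD4 and SMAD1 rose from 17.8 to 27.1 (0.58) and from 11.2 to 16.7 (0.54).

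ALK1 and its coreceptor, through which TMEM100 is known to be induced, were near 0, while other BMP receptors were present. ACVRL1, which encodes ALK1, had 0 to 1 count per PBS library and 0 to 6 per PP library, and its partner ENG had 2 to 14 and 5 to 7 (both named after their values were seen). BMPR2, a receptor that can pair with ALK1, fell from 6.89 to 5.67 FPKM (-0.24, adjusted p = 0.00136 from limma), and it too is named after its values were seen. BMP10 was at 0 in all 6 libraries. Of the TRP channels that TMEM100 binds, TRPV1 fell from 3.77 to 3.19 FPKM (-0.18, adjusted p = 0.0486 from limma), a call that was lost when PBS replicate 2 or 3 or PP replicate 2 or 3 was left out. TRPA1 was below the filter, with 3 to 17 counts in any library.

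SFRP5 stood far above its relatives in FPKM with PBS. Of 13 other secreted WNT antagonists, 3 were tested, with a median of -0.32. Of these 2 were lower (66.7%, against 34.4% of all genes tested) and 1 was not called. FRZB, 1 of the 2 lower genes, passed the filter only through PBS. SFRP1 fell from 6.16 to 3.20 FPKM (-0.77, adjusted p = 3.82e-06 from limma) and FRZB from 1.24 to 0.794 (-0.32, adjusted p = 0.00494 from limma). Without PBS replicate 3, 1 of the 3 was lower. SOST was at 0 in all 6 libraries. The 6 tested of 10 WNT feedback targets, which rise when β-catenin signalling is active, held 3 lower and 2 higher genes, against 34.4% lower and 38.1% higher over all genes tested, with a median of -0.12. LEF1, a partner of β-catenin, fell from 18.5 to 13.2 FPKM (-0.45), ZNRF3 from 3.91 to 3.15 (-0.24) and AXIN2 from 2.37 to 1.96 (-0.18). NKD2 rose from 3.47 to 7.05 FPKM (0.85) and SP5 from 0.906 to 1.52 (0.40), and NKD1 was at 0 in all 6 libraries.

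Some genes of the pump that FXYD6 adjusts changed as well. Among 13 other FXYD genes and Na,K-ATPase subunits 5 were tested, of which 3 were lower (against 34.4% of all genes tested) and 1 was higher, with a median of -0.19. The β subunit ATP1B1 was the most abundant and fell from 174 to 82.3 FPKM (log2 fold change -1.07, adjusted p = 7.38e-09 from limma). FXYD5, a family member found in many carcinomas, fell from 5.75 to 4.56 FPKM (-0.28, adjusted p = 0.00864 from limma).

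Neuroendocrine markers moved in both directions. DDC, the enzyme of amine synthesis, fell from 2.63 to 0.115 FPKM (-1.70), CHGA, a granule protein, from 43.3 to 24.8 (-0.78) and CHGB from 34.9 to 27.8 (-0.32). SCG2, also a granule protein, rose from 8.20 to 13.5 FPKM (0.66) and the factor INSM1 from 16.5 to 19.3 (0.21). Of the 12, 58.3% were lower and 16.7% higher, against 34.4% and 38.1% of all genes tested, and their median was -0.19.

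The nearest tested genes on each side of the 6 genes were also read, at gaps from 5.86 kb (ZFYVE27) to 1060 kb (C17orf67). With 2 on each side, 20 genes were taken, since CEACAM5 and CEACAM6 share theirs. Of these 13 were lower (65.0%, against 34.4% of all genes tested), 3 were higher (15.0%, against 38.1%) and 4 were not called, with a median of -0.38 against 0.02 over all genes tested. B3GNT8 and TMPRSS4, both counted as lower, passed the filter only through PBS. CEACAM5 and CEACAM6, which are themselves next to each other, were left out of each other's neighbours.

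The nearest neighbours differed between loci. ZFYVE27, 5.86 kb from SFRP5, was not called (log2 fold change -0.11, adjusted p = 0.124 from limma), and neither was USP39, 8.02 kb from SFTPB (-0.05, adjusted p = 0.380 from limma). PCTP, a lecithin transfer protein 19.0 kb from TMEM100, fell from 29.8 to 10.7 FPKM (-1.40). TMPRSS13, 23.2 kb from FXYD6, fell from 27.7 to 3.97 FPKM (-2.53, adjusted p = 1.07e-10 from limma), and it is also 1 of the 5 genes next in the order of change. ATOH8, a basic helix-loop-helix factor 85.2 kb from SFTPB, fell from 15.9 to 3.15 FPKM (-2.03, adjusted p = 5.55e-10 from limma).

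The others lay further off or moved less. GOLGA7B, 77.8 kb from SFRP5, fell from 11.5 to 4.24 FPKM (-1.25), and on the other side MARVELD1 fell from 17.3 to 8.75 (-0.91). B3GNT8, a glycosyltransferase 327 kb from CEACAM6, fell from 3.22 to 0.692 FPKM (-1.32), while DMAC2 beside it was not called (-0.10). HLF, 394 kb from TMEM100, rose from 1.42 to 4.09 FPKM (1.07), and CEP164 and BACE1, on the far side of FXYD6 from TMPRSS13, rose by 0.53 and 0.31 on the log2 scale.

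**Figure D4:**
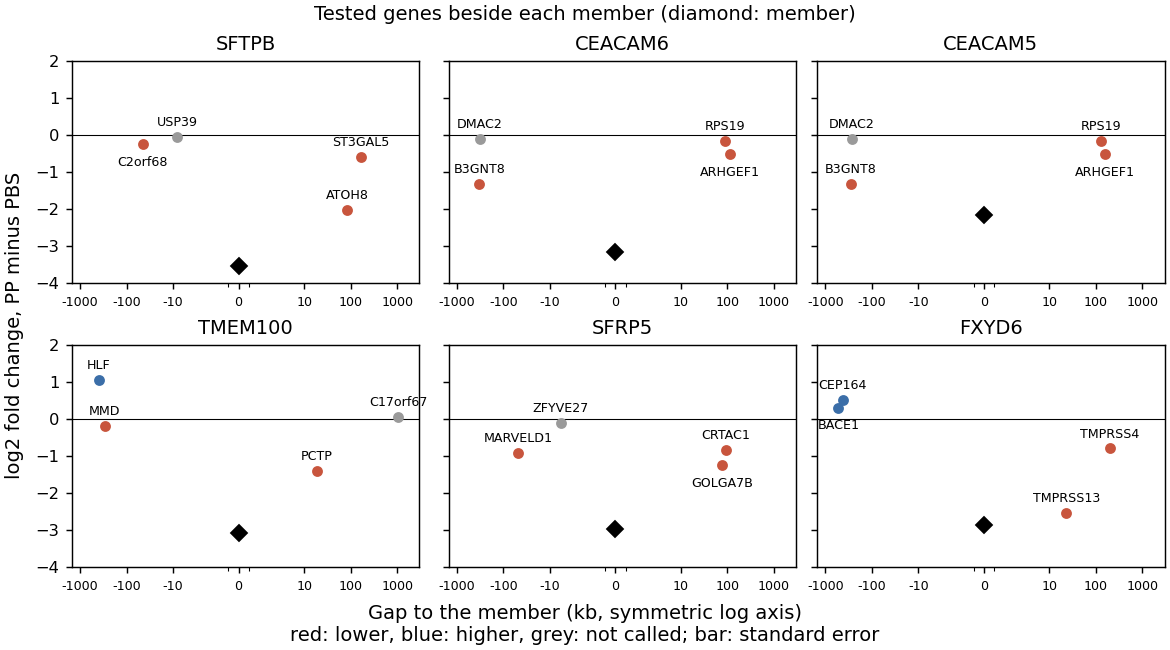
Log2 fold change (PP minus PBS, with standard error) of the 2 nearest tested genes on each side of each of the 6 genes, against the gap in kb between the gene bodies (symmetric log axis, negative towards lower coordinates), with a diamond for the gene itself. The neighbours range from TMPRSS13 beside FXYD6 at -2.53 to HLF beside TMEM100 at 1.07, and CEACAM5 and CEACAM6 are not drawn in each other's panel.

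The plot of the neighbours shows none of the 6 genes with all 4 neighbours called lower. USP39, ZFYVE27 and DMAC2, beside SFTPB, SFRP5 and the CEACAM pair, were not called, at 8.02, 5.86 and at least 269 kb. HLF, CEP164 and BACE1 were higher, at 394, 424 and 521 kb. Whether genes at such gaps belong to the same locus was not tested. Gaps were taken from RefSeq on GRCh38.p14, and genes below the filter and the 6 genes themselves were passed over.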

How the data were processed

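Per the labels, total RNA of NCI-H660 cells (3 libraries with PBS and 3 with PP, day 3) was made into stranded mRNA libraries and read as 150-base pairs. The authors deposited FPKM values for 17177 gene symbols in the 6 libraries. The submitters' processing notes name fastp, HISAT2, HTSeq and GRCh38, while the paper's methods name Bowtie, RSEM, Cufflinks and hg19, and which of them made the values is not known. Positions come from RefSeq on GRCh38.p14, since the table holds none. Whole counts were recovered for all 17177 genes (tolerance 0.01 of a count), and 268 genes were at 0 throughout.

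The 11726 genes whose FPKM averaged 1 or more across all libraries were fitted on log2(FPKM + 1) with limma 3.58.1 in R 4.3.3 (eBayes with trend, no covariate, Benjamini-Hochberg adjustment over all of them). A gene low in 1 group could pass this limit through the other. SFTPA1, DDC, TMEM100, TSPAN8, GPA33, SMAD6, FRZB, B3GNT8 and TMPRSS4 did so through PBS, and SP5, STEAP2 and ACVR2A through PP. GPA33 and ACVR2A are named for this alone. The counts of lower and higher genes in the lists and among the neighbours include those that belong to them. Python 3.11.15 drew the figures. The cutoff counted beside it, P under 0.001 (taken as unadjusted) and a log2 fold change beyond 1 or -1, follows the methods. The fit and the recovery of counts were tested on simulated data. Other pseudocounts, filters and scalings, a fit without trend, 1 library fewer, a replicate block and limma-voom on recovered counts were tried.

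The 6 genes and the 13 related lists were chosen with earlier results of these data known. Genes named were the 6 members, the 5 next in order and the 5 most alike, from each list up to 4 members called in each direction and the one highest with PBS, list members at 0 throughout, neighbours and overlapping genes, and others are said to be named after their values were seen. Transcripts were compared in the GENCODE annotation mapped to hg19. The results for some genes are not reported here.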

Additional observations from a re-analysis of the deposited data

How the results depend on the processing

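CEACAM5 kept its call under each of the 14 alternatives, with a log2 fold change between -2.21 and -2.12. The direction of all 6 genes was also the same, but this is no test for the genes chosen by their fall. The other filters, the replicate block and the fit without trend left each log2 fold change as it was. For these genes, such settings bear only on the call of CEACAM5. With a pseudocount of 0.1 and with limma-voom on recovered counts, neither of which shrinks low values as the pseudocount of 1 does, SFTPB was at -4.01 and -4.07, TMEM100 at -4.27 and -4.49, and SFRP5 at -3.03 and -3.04. FXYD6 was at -2.98 with limma-voom. Genes lower past the cutoff numbered 531 and 559 at these settings against 344, and genes higher numbered 397 with limma-voom. Of 308 counts of list members and neighbours under an alternative, 282 were within 1.5 times the main count. A count of 0 that stayed at 0 was included in the 282. Lists with 0 or 1 gene tested, such as the CEACAM, airway and TRP lists, could hardly give another count at many settings.

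Other counts moved with the filter, which sets how many members are tested and how many genes the adjustment covers. At a mean FPKM of 5, the surfactant list had 2 lower, the lung factors 3 higher, the BMP list 5 lower and 3 higher, the TRP and WNT antagonist lists 0 lower, and the WNT feedback list 1 lower and 1 higher. At 0.1, the CEACAM and PSG list had 1 lower and 1 higher, the TRP list 0 lower and the WNT antagonists 1 higher. With no filter these 4 counts were also 1, 1, 0 and 1, and the surfactant list had 2 higher, the airway list 3 lower and 2 higher, and the FXYD list 2 higher. When 1 library at a time was omitted, the TRP list had 0 to 1 lower (0 without PBS replicate 2 or 3 or PP replicate 2 or 3) and the WNT antagonists 1 to 3 lower (1 without PBS replicate 3).

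Whether the replicate numbers pair the libraries is not given by the labels. The deviations of same-numbered libraries from their group means correlated at -0.211, -0.014 and -0.127, and those of differently numbered ones at -0.067 to 0.182. No shared deviation was thus seen, which cannot show how the libraries were made. A fit with the replicate block gave 0 lower in the TRP list and left the counts of the other related lists and of the neighbours within 1.5 times, and the 3 marker lists (neuroendocrine, luminal, and stromal, endothelial and blood) were not run under the alternatives. Of the 6 genes, TMEM100 rests on the fewest counts, 38 to 42 per PP library, and CEACAM1, CEACAM19, ACVRL1 and SFTPC are too low here for their change to be more than roughly known.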
